A study of Homo sapiens with 4 samples.

Results

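The solute carriers (SLC) are the membrane proteins that move amino acids, sugars, ions, vitamins, nucleosides and metabolites across the plasma membrane and organelle membranes. Members were chosen by symbol alone, as every entry beginning with SLC and a digit, from 2 tables of the authors that hold features selected on a Q value under 0.05 for HRP2 knockdown against control. The gene table gave 17 solute carrier genes out of 684, and the transcript table gave 14 solute carrier transcripts, of 10 genes, out of 1040. Since that same contrast chose them, their values are a description and carry no test of their own.

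LP-1 is an established human multiple myeloma line. Its cells had received a lentiviral guide RNA construct, either one against HRP2 (a chromatin reader with a PWWP domain, encoded by HDGFL2, 0.388 times the control level in the authors' deposited gene table) or a non-target control, with 2 RNA sequencing libraries in each group. The labels do not say whether the guide acted by editing or by repression, whether the cells were 1 clone or a pool, or whether the replicates were grown apart. Values of single libraries were not used, so no fold change carries an error or a spread between replicates, and depth is unknown. Of 9 plasma cell markers, IRF4, TNFRSF17 and SDC1 were in the gene table (all lower), and none of 15 markers of T and NK, myeloid, stromal or epithelial cells was. Of all 24237 listed mRNA genes, 2.81% were in the gene table, and 1.32% were in it as lower. Nothing on cell identity is read from these counts. Levels of these markers were not analysed here.

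Solute carriers are numbered into subfamilies by sequence, and genes of 1 subfamily need not share a substrate. Plasma cells make and secrete large amounts of immunoglobulin, which requires a steady supply of amino acids, nucleotide sugars and energy. Several amino acid transporter genes carry a composite CEBP-ATF element through which the transcription factor ATF4 acts when amino acids are short, while transporters of myo-inositol and taurine adjust the content of compatible osmolytes in the cell.

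Of 374 solute carrier mRNA genes in the deposited gene list, 17 (4.55%) were in the authors' deposited gene table, where 2.81% of all 24237 listed mRNA genes were. The list says which genes were annotated and not which were expressed, so the 2 shares do not measure enrichment. By direction, 9 were higher (2.41% of those listed, against 1.49% of all listed) and 8 were lower (2.14%, against 1.32%). Higher genes thus made up 52.9% of the called solute carriers and 52.8% of all called genes. Called members came from 13 of 50 subfamilies. The median log2 fold change of the higher members was 0.73, beside 0.66 for all higher genes of the authors' deposited table, and that of the lower members was -0.87, beside -0.78. A log2 fold change of 1 or more in size was found for 6 of the 17 members (35.3%) and for 149 of all 684 called genes (21.8%), with 3 members in each direction. The other 11 members lay between 0.46 and 0.89 in absolute log2 fold change, so most differences were under 2-fold.

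**Figure D1:**
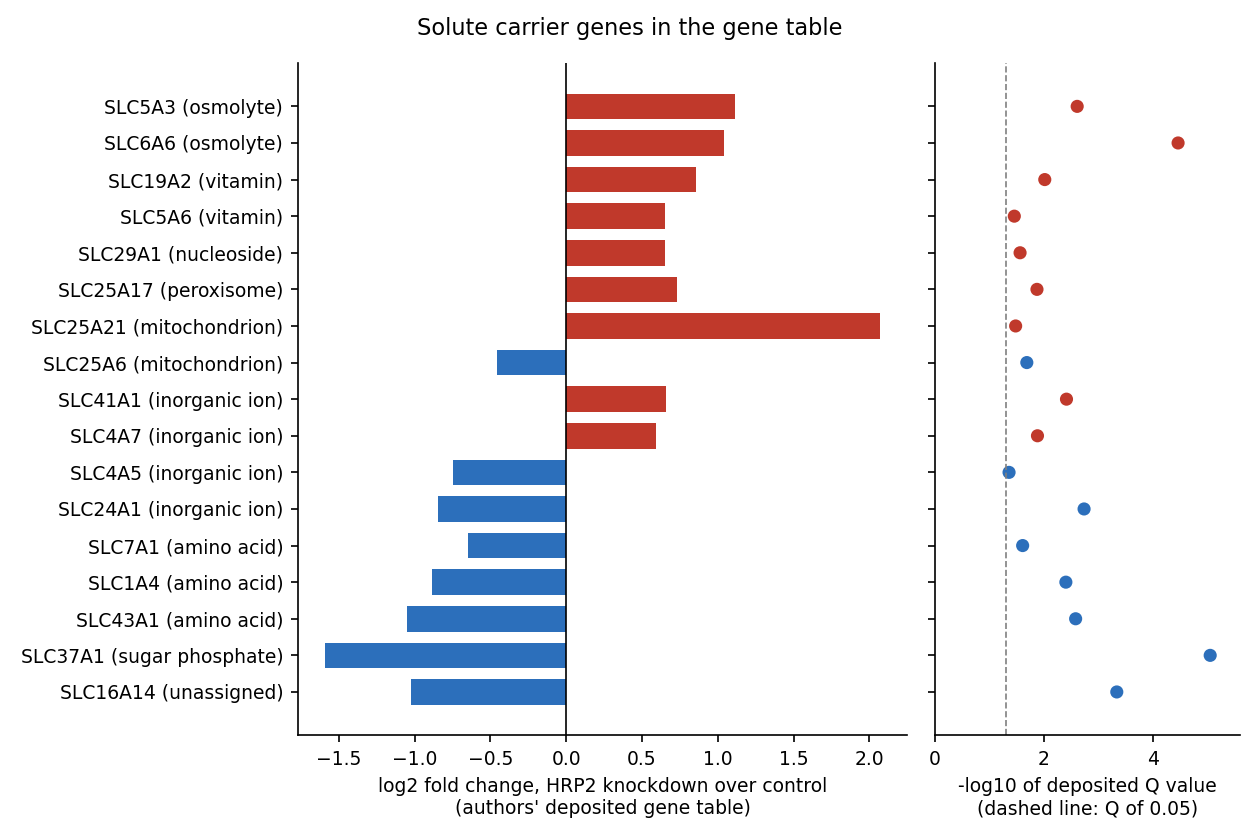
Log2 fold change of HRP2 knockdown over control (left, bars from 0) and -log10 of the Q value (right, points; the dashed line marks a Q of 0.05) for the 17 solute carrier genes, ordered by what they carry, red for higher and blue for lower in the knockdown. Both osmolyte transporters, SLC6A6 of an amino acid subfamily among them, and both vitamin transporters are to the right of 0. The 3 genes grouped as amino acid transporters are to the left.

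Of the called genes of the amino acid subfamilies, 3 were lower and 1, the taurine transporter SLC6A6, was higher. It is described below with the osmolytes. SLC43A1 (gene ID 8501), which encodes LAT3, a sodium-independent carrier of leucine and other large neutral amino acids, stood at -1.05 on the log2 fold change scale of the authors' deposited gene table (Q = 0.0026), 0.482 times the control level. SLC1A4 (gene ID 6509), which encodes the neutral amino acid exchanger ASCT1, a carrier of serine and alanine, was at -0.89 there (Q = 0.00393), 0.541 times control. SLC7A1 (gene ID 6541), which encodes CAT1, the carrier of arginine and lysine, was at -0.65 (Q = 0.0244; authors' deposited table), 0.639 times control. The 3 lower genes belong to 3 different subfamilies, so their common direction is not one of a single subfamily. In all, 60 genes of the amino acid subfamilies were listed, and 4 were called, SLC6A6 included (6.67%, beside 2.81% of all listed mRNA genes). The other 56 had no value because they were not called.

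The CEBP-ATF element TGATGNAAN was found in 1 of the 2 promoter windows of SLC1A4 and in the single window of SLC7A1, which is why these are shown. RefSeq windows of build GRCh38.p14 run from 250 bases before to 50 bases after an annotated transcript start. They were found for 16 of the 17 members (25 windows, as several genes have more than 1 start), and SLC6A6 was not among them. The windows are given 5′ to 3′ on the strand of the gene, with the element in capitals, at chr2:64989149-64989448 (plus strand) for SLC1A4 and chr13:29595639-29595938 (minus strand) for SLC7A1.
SLC1A4: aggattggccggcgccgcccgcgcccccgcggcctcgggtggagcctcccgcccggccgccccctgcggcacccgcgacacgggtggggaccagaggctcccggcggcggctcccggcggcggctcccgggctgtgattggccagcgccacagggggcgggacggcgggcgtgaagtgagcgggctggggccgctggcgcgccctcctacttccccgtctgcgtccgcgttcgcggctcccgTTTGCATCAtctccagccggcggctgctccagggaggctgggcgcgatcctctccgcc
SLC7A1: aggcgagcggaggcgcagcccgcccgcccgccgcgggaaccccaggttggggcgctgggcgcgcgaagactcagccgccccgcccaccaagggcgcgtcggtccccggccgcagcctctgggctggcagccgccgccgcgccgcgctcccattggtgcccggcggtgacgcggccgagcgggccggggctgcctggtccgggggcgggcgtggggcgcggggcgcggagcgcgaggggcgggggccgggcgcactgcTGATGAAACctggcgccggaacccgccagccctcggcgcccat
In SLC1A4 the element lies on the opposite strand (TTTGCATCA as printed) and begins 8 bases before the start, and in SLC7A1 it reads TGATGAAAC and begins 7 bases after the start. Searched on both strands, TGATGNAAN was present in 3.61% of 35087 promoter windows and in those of no other member. The match describes these letters only. It was absent from both windows of SLC43A1, and no binding data were analysed here. Of 20 genes of amino acid synthesis and the ATF4 response, 3 were called, beside 2.81% of all listed mRNA genes: PYCR1, a proline synthesis enzyme, at -0.73 (Q = 0.00222), ALDH18A1, which acts earlier in the same pathway, at 0.54 (Q = 0.0385), and GOT2, mitochondrial aspartate aminotransferase, at 0.43 (Q = 0.0425), all as log2 fold changes in the authors' deposited gene table.

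Both called transporters of organic osmolytes were higher by about the same amount. SLC5A3 (gene ID 6526) encodes SMIT1, a sodium-coupled carrier of myo-inositol, and stood at 1.11 on the log2 scale of the authors' deposited gene table (Q = 0.00243), 2.16 times the control level. SLC6A6 (gene ID 6533), which encodes the taurine transporter TauT, was at 1.04 (Q = 3.41e-05; authors' deposited table), 2.06 times control. SLC6A6 had the second lowest Q value among the members.

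The SLC5A3 value is given beside that of MRPS6, a mitochondrial ribosomal protein gene at the same locus. Of the 31-base sequence words of SLC5A3, 1.71% were shared with MRPS6. In GENCODE 29 the first of the 2 exons of SLC5A3 (176 bases) lies wholly within exons of MRPS6 on the same strand, and the second (11400 bases) overlaps none of them. RefSeq gives both genes the same promoter window, of which 82.0% is G or C, at chr21:34073328-34073627 (GRCh38.p14, plus strand), shown because it belongs to both.
SLC5A3: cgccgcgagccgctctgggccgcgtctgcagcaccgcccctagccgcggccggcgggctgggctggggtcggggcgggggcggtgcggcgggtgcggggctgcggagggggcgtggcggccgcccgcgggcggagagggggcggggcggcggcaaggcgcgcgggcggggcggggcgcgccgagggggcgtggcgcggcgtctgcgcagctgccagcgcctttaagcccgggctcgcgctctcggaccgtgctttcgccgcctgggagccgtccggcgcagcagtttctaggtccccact
MRPS6 was higher by a like amount, at 1.10 on the log2 scale of the authors' deposited gene table (Q = 0.0076). How reads of the shared exon were assigned is not given in the sources used here. Among the other members, SLC4A5 shared 59.8% of its 31-base sequence words with other genes, most of it with 1 gene model at the same locus, and for the rest of the 17 genes the share was at most 2.41%. The protein-coding genes overlapping or next to each of the 17 members were looked up. Besides MRPS6, 2 were called in the authors' deposited table: HSP90AB1 beside SLC29A1 (log2 fold change 0.59) and CEP68 beside SLC1A4 (-0.71). Each had the sign of its member. Of all listed mRNA genes 2.81% were called, but no share of called neighbours was computed, so how often neighbours were called is not read from this. The other neighbours were not called and have no value here.

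The called vitamin transporters were higher as well. SLC19A2 (gene ID 10560), which encodes the thiamine transporter THTR1, was at 0.85 (log2, Q = 0.00959) according to the authors' deposited gene table, 1.81 times control. SLC5A6 (gene ID 8884), the sodium-dependent multivitamin transporter for biotin and pantothenate, was at 0.65 (Q = 0.0348; authors' deposited table), 1.57 times control. SLC5A6 shares a subfamily with SLC5A3, although their substrates differ. SLC29A1 (gene ID 2030), which encodes ENT1, the equilibrative carrier through which adenosine and nucleoside drugs enter cells, was at 0.65 (Q = 0.0273; authors' deposited table), 1.57 times control.

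In the mitochondrial carrier subfamily, SLC25, 3 of 48 listed genes were called (6.25%, beside 2.81% of all listed mRNA genes), and they went both ways. SLC25A21 (gene ID 89874), a carrier of 2-oxoadipate and 2-oxoglutarate in lysine and tryptophan breakdown, had the largest gene-level change of any member, 2.07 on the log2 scale of the authors' deposited gene table, 4.19 times control. It ranked 6 among the higher genes by size, but 524 of 684 by Q value (Q = 0.0329). Of the 22 called genes that moved by 2 or more on the log2 scale, which had a median Q of 0.00964, 4 had a Q as high as this one or higher, itself included. In GENCODE its exons overlap those of PAX9 and of an antisense gene on the opposite strand, and whether the counting used strand is not given in the sources used here. The same limit holds for SLC37A1, SLC6A6, SLC4A5, SLC5A6 and SLC24A1. Their exons overlap those of RSPH1, GRIP2, MTHFD2, ATRAID and DENND4A, in that order, on the opposite strand. SLC25A17 (gene ID 10478), which despite its subfamily sits in peroxisomes and carries coenzyme A, FAD and NAD, was at 0.73 (Q = 0.0133; authors' deposited table). SLC25A6 (gene ID 293), the ADP/ATP carrier ANT3, had the smallest change of any member, -0.46 (Q = 0.0205; authors' deposited table), 0.729 times control. It lies in the pseudoautosomal region of the X chromosome. Of 21 mitochondrial carriers and channels named outside the SLC scheme, 2 were called, beside the same 2.81% of all listed mRNA genes. MTCH2, an outer membrane protein of the carrier fold, was higher at 0.92 (Q = 0.000597) and VDAC1, the outer membrane channel, at 0.48 (Q = 0.0395; log2 fold changes of the authors' deposited gene table).

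Carriers of inorganic ions were split, 2 higher and 2 lower. Within the bicarbonate transporter subfamily 2 of 11 listed genes were called, where 2.81% of all listed mRNA genes were, and they went opposite ways. SLC4A7 (gene ID 9497), the sodium bicarbonate cotransporter NBCn1, which loads base into the cell, was at 0.59 (Q = 0.0131) in the authors' deposited gene table. SLC4A5 (gene ID 57835), the cotransporter NBCe2, was at -0.74 (Q = 0.0434; authors' deposited table), the highest Q value among the members and so the closest to the limit of 0.05. Genes beyond that limit have no value here. SLC24A1 (gene ID 9187), a potassium-dependent sodium-calcium exchanger best known from rod photoreceptors, was at -0.85 (Q = 0.00182), and SLC41A1 (gene ID 254428), a magnesium transporter, at 0.66 (Q = 0.00383; log2 fold changes of the authors' deposited table).

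The lowest member was SLC37A1 (gene ID 54020), which encodes an endoplasmic reticulum antiporter of glucose 6-phosphate and phosphate. It was at -1.59 (log2) by the authors' deposited gene table, 0.333 times control, and its Q value of 8.77e-06 was the lowest among the members and rank 31 of all 684. SLC16A14 (gene ID 151473), a little studied gene of the monocarboxylate transporter family, was at -1.03 (Q = 0.000456; authors' deposited table), 0.491 times control.

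**Figure D2:**
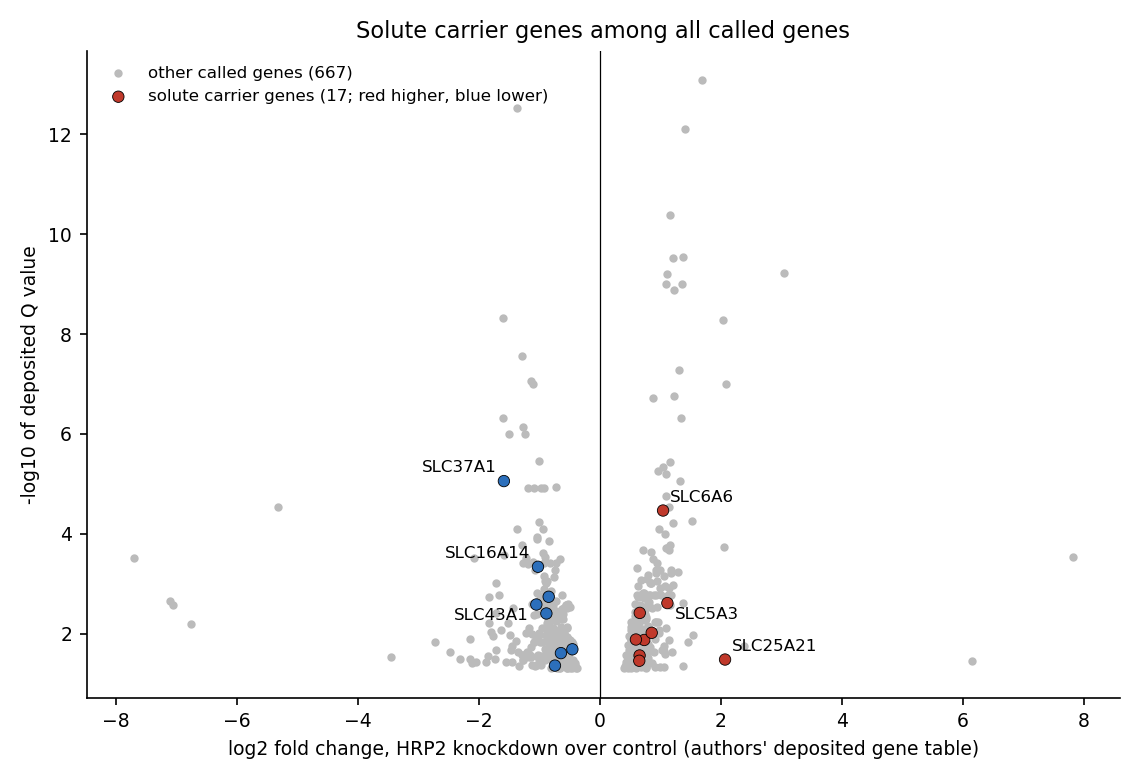
Each point is 1 of the 684 genes of the authors' deposited gene table, with log2 fold change of knockdown over control on the x axis and -log10 of its Q value on the y axis. Grey points are the 667 other genes, and the 17 solute carriers (red higher, blue lower) lie within their range, with SLC37A1 and SLC6A6 at the lowest Q values of the members and SLC25A21 at a large change with a Q of 0.0329.

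By subfamily number, without regard to single genes, called members were counted in 8 substrate groups and none in 5. With 2.81% of all listed mRNA genes called, a group of this size holds few called genes or none at the background share, and nothing is read from a count of 0. There were 4 called of 60 listed in the amino acid subfamilies (the taurine transporter counted here, 1 higher and 3 lower), 3 of 60 for inorganic ions, 3 of 48 for mitochondrial carriers, 3 of 36 for sugars and 1 each for metals (32 listed), carboxylates (19), vitamins (12) and nucleosides (7). No gene was called among 31 nucleotide sugar transporters of subfamily SLC35, 48 organic ion transporters, 11 lipid, 5 peptide or 5 other transporters. None was called among the 15 facilitative glucose transporters of SLC2, the 15 sodium-proton exchangers of SLC9, the 11 sodium-coupled neutral amino acid transporters of SLC38 or the 14 zinc importers of SLC39. The same held for 9 widely studied carriers picked after the values were seen, SLC2A1, SLC16A1, SLC16A3, SLC1A5, SLC3A2, SLC7A5, SLC7A11, SLC38A1 and SLC38A2. A gene outside the authors' deposited table has no value here and is not shown to be unchanged.

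**Figure D3:**
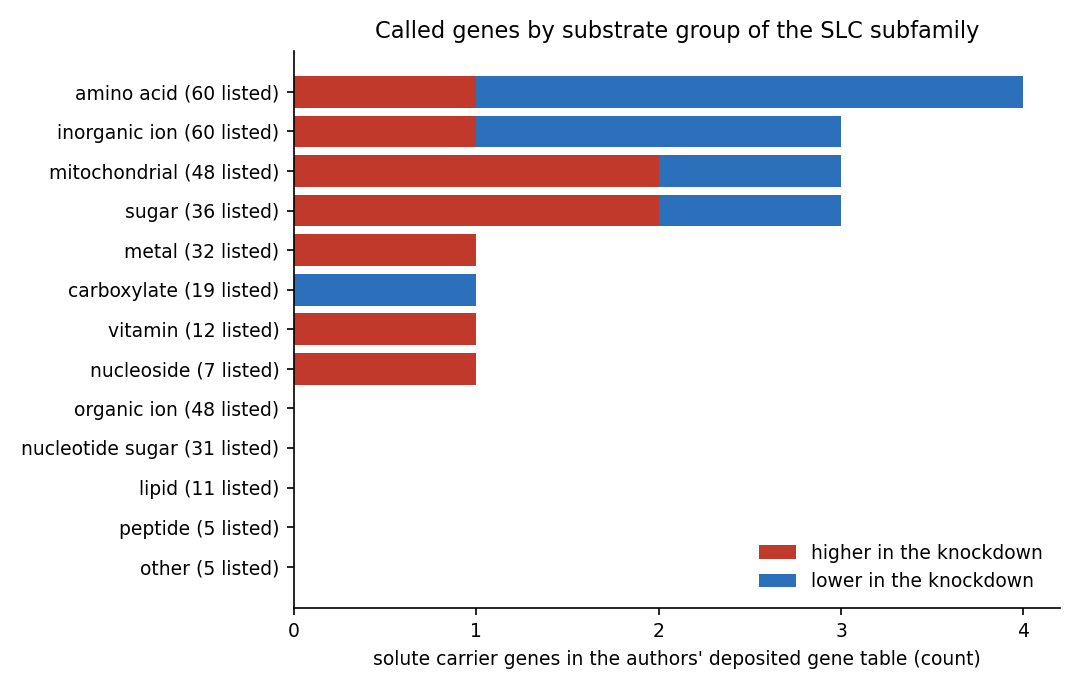
Number of solute carrier genes in the authors' deposited gene table (x axis, stacked bars from 0, red higher and blue lower in the knockdown) for each substrate group of the subfamily numbers, with the number of listed mRNA genes in brackets. The amino acid subfamilies hold 4 called genes, 3 of them lower.

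Transporters outside the SLC scheme were read from lists, beside the 2.81% of all listed mRNA genes that were called. Called ATP-binding cassette genes included ABCA3, a lipid transporter, at -0.79, and ABCE1, a ribosome recycling factor, at 0.52 (log2 fold changes of the authors' deposited gene table). Of 27 V-type ATPase genes only ATP6AP1L was called, at -0.98, and of 16 partners and regulators only GLUL, glutamine synthetase, at 1.15 in the authors' deposited table. None was called among 12 SLCO genes, 45 carriers with atypical names or 40 P-type ATPases.

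Direction went with base composition among the members as it did among other called genes. Transcript GC content had a median of 43.3% for the 9 higher members (range 38.3% to 58.1%) and of 54.8% for the 8 lower members (50.6% to 64.9%), so the ranges overlapped. The medians of the other called genes were 46.7% for higher and 57.5% for lower ones. All 5 members under 50.4%, the median of called genes, were higher, as were 74.6% of all 338 called genes there. At or above it 4 members were higher and 8 lower, and 31% of all 339 called genes were higher. What part base composition has in the members' values was not tested. In the promoter windows the order was the other way: the median GC content was 70.3% for the 11 windows of higher members and 57.7% for the 14 of lower members, beside 65.0% and 66.0% for windows of all higher and lower called genes. Windows and not genes were counted here, so a gene with several starts, such as SLC24A1, has more weight, and SLC6A6 has none.

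**Figure D4:**
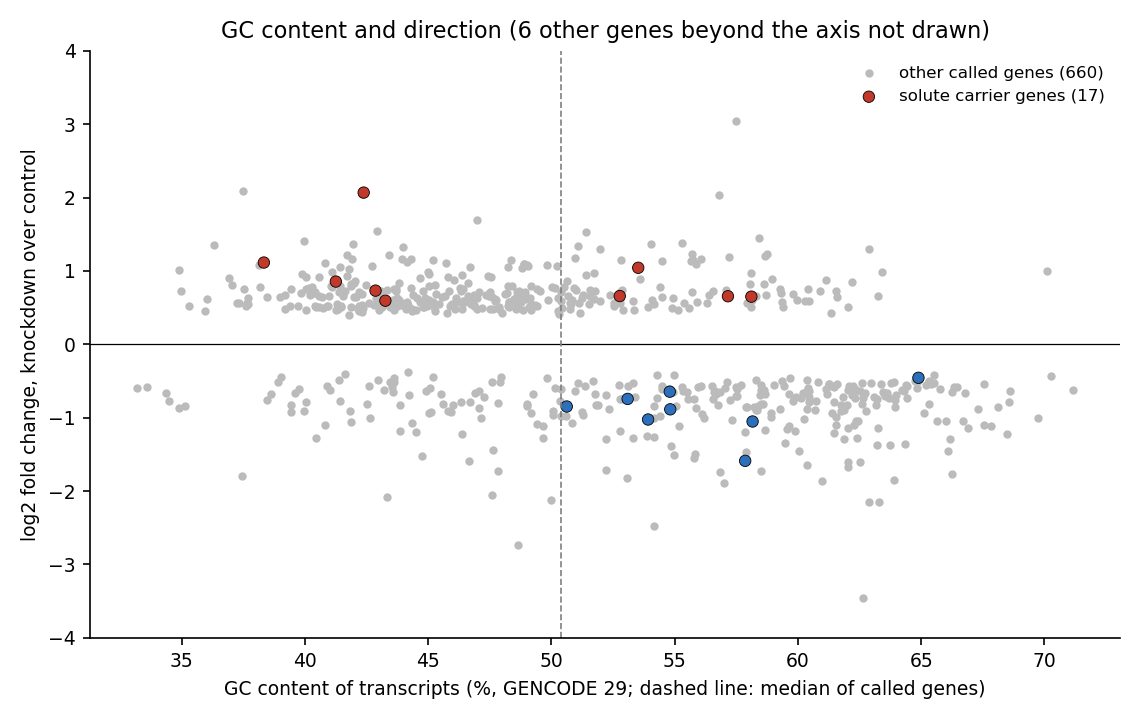
Transcript GC content in percent (x axis; the dashed line is the median of called genes, 50.4%) against log2 fold change of knockdown over control in the authors' deposited gene table (y axis). Red and blue points are the 9 higher and 8 lower solute carrier genes, grey points other called genes (6 beyond the y axis are not drawn). The 5 members left of the line are all higher.

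Other motifs were counted in the same windows, with no test. The hypoxia response cores ACGTG and GCGTG were in 6 and 13 of the 25 windows (21.4% and 36.5% of all windows), the E-box CACGTG, which contains ACGTG, in 2 (7.25%), and TGGAAA, a core of the tonicity element, in 7 (20.8%). TGGAAA was not in the SLC5A3 window. All were searched on both strands. Counted by gene, ACGTG was in windows of 5 of the 16 genes, GCGTG of 10, CACGTG of 2 and TGGAAA of 7. The share over all genes was not counted, and a gene with several windows has more places for a match. The counts by gene are therefore not comparable with the shares of windows. The windows of SLC19A2 overlap, so its ACGTG and GCGTG sites were counted in each of them.

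The transcript table gave another set of solute carriers. Of its 14 entries, 6 (42.9%) were higher and 8 lower, where 51.0% of all 1040 transcripts were higher. Only 1 of the 17 called genes also had a called transcript (5.88% of the called genes and 10.0% of the 10 genes with a called transcript), whereas 117 of all 684 called genes (17.1%) had one. That gene was SLC43A1, with 1 transcript (XM_024448728.1) at -8.97 (Q = 0.00347) in the authors' deposited transcript table and -1.05 as a gene.

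Most of the transcript values were far larger than the members' gene values. On the log2 scale, sizes under 6 were seen for 2 of the 14 entries (20.9% of all transcripts), of 6 to under 20 for 10 (71.7%), and of at least 20 for 2 (7.40%). The smallest was that of SLC25A23, which encodes a calcium-regulated mitochondrial carrier of ATP-Mg and phosphate, at 0.91 for 1 predicted transcript (Q = 0.0081; authors' deposited transcript table). The 2 beyond 20 were a transcript of SLC9A8, a sodium-proton exchanger of endosomes and Golgi, at -23.14 (Q = 8.72e-07), and 1 of SLC7A6 at -23.24 (Q = 5.73e-07; authors' deposited transcript table). For SLC9A8 this is a control level 9.21e+06 times that of the knockdown, and since the levels themselves were not used here, such values are read for their sign alone. By accession type 7 of the 14 were curated mRNAs, 5 predicted mRNAs and 2 predicted non-coding transcripts, beside 44.0%, 49.9% and 6.06% of all 1040. Of the 14 accessions, 9 were in the RefSeq GRCh38.p14 annotation (64.3%, beside 66.0% of all). The deposited list of transcript names, as used here, held 439 names, all of them lower transcripts of the authors' deposited transcript table, and 5 of the 8 lower member transcripts were among them (86.1% of all lower transcripts). It was therefore not used as a background for transcripts.

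**Figure D5:**
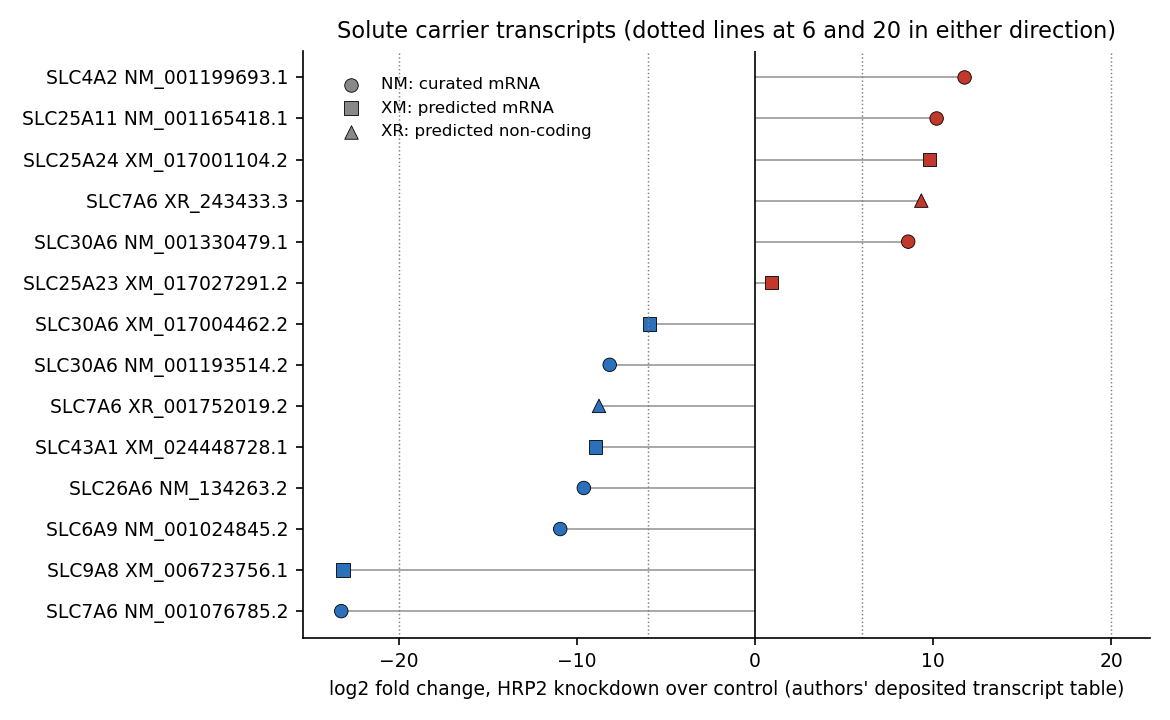
Log2 fold change of knockdown over control (x axis, authors' deposited transcript table) for the 14 solute carrier transcripts, red higher and blue lower, with the marker shape giving the accession type. SLC7A6 and SLC30A6 each have entries on both sides of 0, and the SLC25A23 entry, at 0.91, is the smallest.

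SLC7A6 and SLC30A6 had 3 called transcripts each, in both directions, and neither was called as a gene. SLC7A6, which encodes y+LAT2, a light chain that exchanges arginine for neutral amino acids together with SLC3A2, had entries at 9.33, -8.77 and -23.24 (log2; authors' deposited transcript table, Q = 0.000436, 0.0176 and 5.73e-07). The first and second are predicted non-coding models, and the third is the mRNA NM_001076785.2. In GENCODE that mRNA has the same coding length, 1545 bases, as the other curated one, NM_003983, and holds a non-coding exon of 87 bases that NM_003983 lacks. Their total lengths, 6308 and 6251 bases, show that they differ at other non-coding bases too. SLC30A6, which encodes the zinc transporter ZnT6 of the Golgi, had entries at 8.60, -8.17 and -5.94 (Q = 0.0345, 0.000723 and 0.037; authors' deposited transcript table). Transcripts in both directions were found for 89 of all 136 genes with at least 2 called transcripts (65.4%).

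For 3 other genes the called transcript could be matched to a single GENCODE model, and a coding difference from another curated transcript of the gene is shown. The models also differ outside the coding sequence, which is not shown. The entry of SLC25A11, the mitochondrial carrier that exchanges 2-oxoglutarate for malate in the malate-aspartate shuttle, was NM_001165418.1, at 10.19 in the authors' deposited transcript table (Q = 0.000775). That model lacks 1 coding exon of 153 bases (51 codons, so the reading frame is kept), which NM_003562 holds at chr17:4939060-4939212 (GRCh38, minus strand).
SLC25A11 exon: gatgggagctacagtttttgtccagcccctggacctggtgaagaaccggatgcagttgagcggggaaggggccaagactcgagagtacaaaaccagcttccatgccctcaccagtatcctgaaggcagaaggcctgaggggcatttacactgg
The called transcript of SLC4A2, which encodes the chloride-bicarbonate exchanger AE2, was NM_001199693.1, at 11.76 (Q = 2.66e-08; authors' deposited transcript table), the largest higher value among the members. Its first coding bases give 8 codons (chr7:151062640-151062663, GRCh38, plus strand) in place of the 17 codons of NM_003040 (chr7:151061988-151062038), with the start codon in capitals.
SLC4A2 NM_001199693: ATGgacttcctcctgcggcctcag
SLC4A2 NM_003040: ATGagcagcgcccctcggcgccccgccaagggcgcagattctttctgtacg
SLC26A6, an anion exchanger of chloride, oxalate and bicarbonate, had NM_134263.2 at -9.62 (Q = 8.1e-05; authors' deposited transcript table). Its coding sequence differs from that of NM_022911 by 3 bases at the start of 1 exon (chr3:48626876-48627055 in NM_022911, GRCh38, minus strand), which are in capitals within the spliced sequence.
SLC26A6 NM_134263: gactgcaagatgatggtgagctcaggagat
SLC26A6 NM_022911: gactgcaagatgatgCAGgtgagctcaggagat
In all, the models hold 2630 bases for NM_134263 and 2589 for NM_022911, so they differ at non-coding bases as well. The other transcript of each of these pairs had no entry in the authors' deposited transcript table.

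The remaining entries were single transcripts. SLC25A24, a paralogue of SLC25A23 with the same kind of substrate, was at 9.80 (Q = 0.000361) with a predicted transcript. SLC6A9, which encodes the glycine transporter GlyT1, was at -10.95 (Q = 3.23e-06) with NM_001024845.2. Both are log2 fold changes of the authors' deposited transcript table. Of the 5 called transcripts of amino acid transporters (SLC7A6, SLC6A9 and SLC43A1), 4 were lower, where 510 of all 1040 called transcripts were. SLC7A6 alone gave 3 of these 5, in both directions, and 2 of its entries are predicted non-coding models. Among mitochondrial carriers all 3 called transcripts (SLC25A11, SLC25A23 and SLC25A24) were higher, where 51.0% of all called transcripts were. The called genes of that subfamily went both ways.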

How the data were processed

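RNA sequencing libraries of LP-1 cells (2 HRP2 knockdown, 2 control) were described through the authors' tables. Per the submitters' processing notes, BWA, Bowtie2, RSEM and hg19 were used, without roles or versions. Normalization, the authors' test, filters and strandedness: not given in the sources used here. The log2 fold changes (knockdown over control) and the Q values were deposited by the authors, and every Q value was under 0.05. The 2 other deposited files list names and RNA types, used for counting listed genes. No per-library columns entered, so no test was run and the planned fits on library values were not made.

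Symbols were matched as deposited. Ratios were computed as 2 to the power of the log2 fold change. GC content (median over protein-coding transcripts), shared 31-base words, exon overlaps and isoform exons came from GENCODE 29 (GRCh38), and promoter windows from RefSeq GRCh38.p14. The deposited tables give no coordinates, so builds were not mixed. Motif and exon searches were tested on simulated sequences (Python 3.11.15, pandas 2.3.3). By the naming rule, all called solute carrier genes are named, with all transcripts of genes in both tables or with 2 or more called transcripts, those under 6 in log2 size, and called genes of the other lists, except 1 result that is not reported here. The other solute carrier transcripts, and the transcripts of other transporters, were named after their values were seen. Where replicates were not separate cultures, the authors' Q values measure only technical spread. Members, lists and substrate groups were chosen with earlier results of these data known, and the lists of osmotic response genes and of widely studied carriers, and the motif TGGAAA, after the members' values were seen.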

Additional observations from a re-analysis of the deposited data

How the results depend on the processing

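The counts depend on the limits set on the deposited values. With a Q value under 0.01, 9 of the 17 solute carrier genes were left (4 higher, 5 lower), and with a log2 size of 1 or more, 6 were left (3 higher, 3 lower). With a log2 size under 6, 2 of the 14 transcripts were left (1 higher, 1 lower). These settings keep fewer features by construction. Adding genes with an SLC symbol among their RefSeq synonyms (MTCH2 and PTCH1) gave 19 genes. Leaving out SLC4A5 for shared words, or SLC5A3 for its overlap with MRPS6, gave 16 genes each, both chosen after seeing the data. The other settings, a Q value under 0.01 (11 transcripts), leaving out transcripts at 20 or more (12) and 1 transcript per gene (10), stayed within 1.5 times the reported count. No paired analysis was possible because the deposited tables hold fold changes and no library columns, and leaving out a replicate could not be run for the same reason. Depth is unknown, so no limit of detection can be given.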

Other observations

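Because SLC5A3 and SLC6A6 are known to respond to high osmolarity, other genes with that property were looked up, chosen after the members' values were seen. Of the 8 others listed, 1 was called, beside 2.81% of all listed mRNA genes: HSPA4L, an HSP110 family chaperone, at 0.92 (Q = 0.00168; log2 fold change of the authors' deposited gene table). Called genes with HSP or DNAJ symbols outside that list were higher, except HSPA13 at -0.87 (Q = 0.00619) and DNAJB9 at -1.28 (Q = 7.28e-07). The higher ones included HSPA8 at 1.69 (Q = 8.21e-14), HSPH1 at 1.41 (Q = 7.64e-13) and HSP90AB1 at 0.59 (Q = 0.00403). HYOU1, a chaperone gene without such a symbol, was lower at -0.64 (Q = 0.0184). All are log2 fold changes of the authors' deposited gene table. Whether the HSPA4L value belongs with those of the 2 osmolyte transporters or with those of the other chaperones was not tested. AKR1B1, which makes the osmolyte sorbitol, was not called as a gene but had 1 transcript at 23.33 (Q = 6.91e-08) in the authors' deposited transcript table. NFAT5, the transcription factor of the osmotic response, was not called as a gene either and had 1 transcript at 23.21 (Q = 1.14e-07) and another at -23.32 (Q = 3.69e-07; authors' deposited transcript table).

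The following transcripts were picked after their values were seen. P-type ATPases had 5 called transcripts, 2 higher and 3 lower, and no called gene. Of all 1040 called transcripts 51.0% were higher. The 2 higher ones were of ATP13A3 at 10.77 (Q = 4.06e-06) and ATP8A1 at 10.31 (Q = 3.93e-06; log2, authors' deposited transcript table). The smallest of the 5 in size was that of ATP2C1, the Golgi calcium and manganese pump, at -0.76 (Q = 0.00729). The largest was that of ATP2A3, a calcium pump of the endoplasmic reticulum, at -22.95 (Q = 3.23e-07; authors' deposited transcript table). ABCC1, the drug efflux pump MRP1, had 1 predicted transcript at 23.16 (Q = 1.36e-07; authors' deposited transcript table) and was not called as a gene. SLCO4C1, an organic anion transporter, had 1 predicted transcript at 3.68 (Q = 0.02; authors' deposited transcript table).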
